A study of Mus musculus with 2 samples.

Results

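The aminoacyl-tRNA synthetases, the enzymes that charge transfer RNA with amino acids, were examined in RNA of sorted gastric parietal cells, which secrete acid. The genes were chosen by name: protein-coding genes whose mouse symbol is an amino acid letter followed by ars, with or without a final digit, together with Eprs, Farsa, Farsb and the accessory genes Aimp1, Aimp2, Eef1e1 and Qrsl1. This rule found 41 genes among the 38087 identifiers of the deposited tables: 20 cytosolic enzymes, 17 mitochondrial enzymes and 4 accessory genes. HFD cells came from C57BL/6 mice fed a high fat diet and Control cells from control mice of the same strain, and total RNA of both was depleted of ribosomal RNA. Age, sex, feeding time, the number of mice per library and the sorting marker are not stated in the labels. Each diet has 1 library, so the diets could not be compared by a test, and every difference below is one between 2 libraries. All 41 genes were listed in both, above the 1 RPKM below which a gene is given as 0 (RPKM, reads per kilobase and per M reads), so none entered through a single library.

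Aminoacyl-tRNA synthetases join each amino acid to its transfer RNA and thereby supply the substrates of the ribosome. The cytosol and the mitochondria use separate enzymes, nearly all encoded by separate nuclear genes, the mitochondrial ones carrying a final 2 in their symbol. Gars and Kars encode both the cytosolic and the mitochondrial enzyme, and Eprs encodes a fused enzyme for glutamate and proline. Several cytosolic enzymes sit together in the multi-synthetase complex, held by the scaffold proteins that Aimp1, Aimp2 and Eef1e1 encode. Mammalian mitochondria make glutaminyl-tRNA indirectly: the enzyme of Ears2 first loads glutamate, which an amidotransferase with the subunits Qrsl1, Gatb and Gatc then converts.

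Estimated depth was 25.5 M reads for HFD cells and 9.84 M reads for Control cells, and each gene of the family rested on at least 146 estimated reads in HFD cells and 131 in Control cells. The defining parietal genes were abundant: Atp4a, the catalytic subunit of the proton pump, stood at 4997 RPKM in HFD cells and 4324 RPKM in Control cells. Summed levels of the marker lists of other cells differed between the libraries in both directions. Pit cell markers summed to 33326 RPKM in HFD cells and 11840 RPKM in Control cells, and leukocyte markers to 32.0 RPKM in HFD cells and 9.53 RPKM in Control cells. Chief cell markers summed to 46051 RPKM in HFD cells and 102874 RPKM in Control cells, nearly all of it Pgc. Endocrine markers summed to 1210 RPKM in HFD cells and 8284 RPKM in Control cells, most of it Ghrl. Of the 5 endocrine markers 4 were lower, and Gast stood at 119 RPKM in HFD cells and 102 RPKM in Control cells. The 12 pancreatic acinar markers summed to 1831 RPKM in HFD cells and 13741 RPKM in Control cells, nearly all of it Clps, with 9 of the 12 listed at 0 in HFD cells and none in Control cells. All 6 proliferation markers were lower in HFD cells, summing to 69.4 RPKM there and 183 RPKM in Control cells. All 4 smooth muscle markers were lower too, summing to 20.9 RPKM in HFD cells and 159 RPKM in Control cells. The 4 fibroblast markers were also all lower, summing to 43.2 RPKM in HFD cells and 124 RPKM in Control cells. Of the 4 pit cell markers 3 were higher, and Tff1 stood at 2960 RPKM in HFD cells and 3003 RPKM in Control cells. The part of these cells in the differences below was not tested, and in bulk RNA fewer cells of a type and less RNA per cell cannot be told apart. Intervals are approximate 95% intervals from estimated reads and cover counting error only.

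Most of the family was modestly lower in HFD cells. Of the 41 genes, 31 were lower and 10 higher, with a median RPKM ratio of HFD to Control of 0.828 and a range of 0.389 to 1.43. Among the 9997 protein-coding genes listed in both libraries, 52.2% were lower, and their median ratio was 0.973. On the log2(RPKM + 1) scale the median of the family was -0.27, against -0.03 over the coding genes listed in both libraries and -0.11 over 11976 protein-coding genes listed in either library. On that scale only Sars and Aimp2 were over 2-fold lower (2 of 41), where the background share is 9.13% of coding genes listed in both libraries and 20.1% of those listed in either, which include genes at 0 in a library. None was over 2-fold higher, where the background share is 4.73% of coding genes listed in both and 8.02% of those listed in either. By the plain ratio 6 of 41 were over 2-fold lower (Ears2, Aimp2, Sars, Eef1e1 and Vars among them) against a background of 12.5% of genes listed in both libraries, and none was over 2-fold higher against 7.00%. Against genes listed in both libraries, as the whole family is, the count past 2-fold did not set the family apart (4.88% lower against 9.13% on the log2(RPKM + 1) scale), and the median of the family was the lower one. The counting interval lay wholly below a ratio of 1 for 26 genes, wholly above it for 5 and spanned it for 10. It lay wholly beyond 2-fold for 2 genes, Ears2 and Sars.

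**Figure D1:**
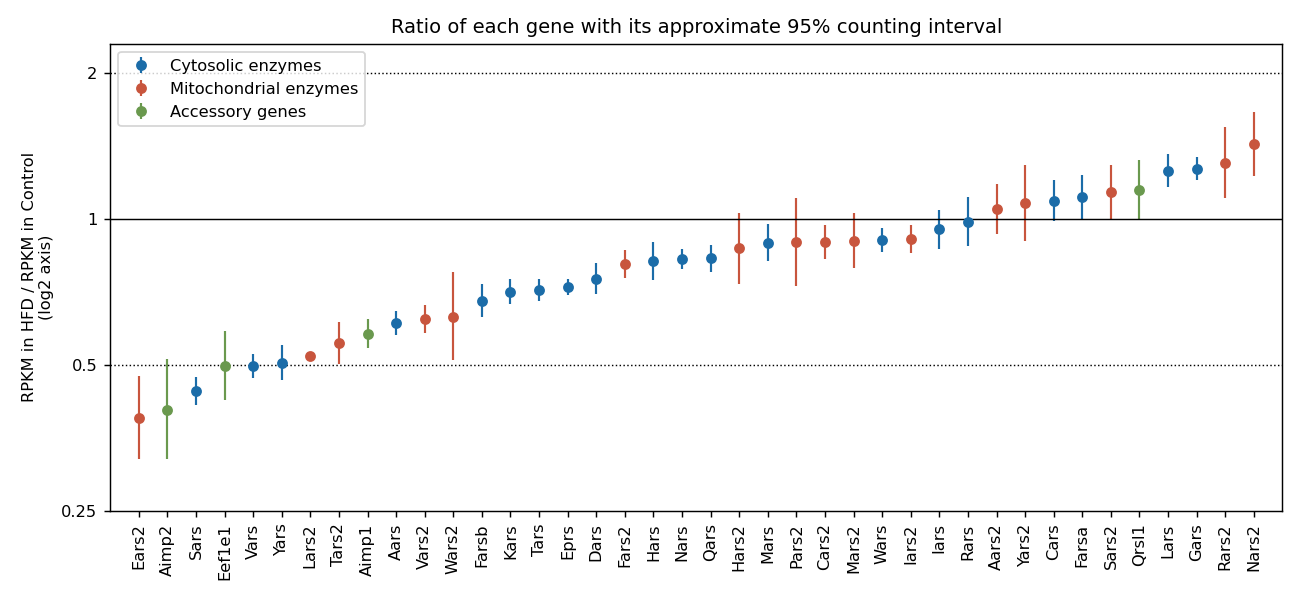
RPKM in HFD cells over RPKM in Control cells (log2 axis) for 40 of the 41 genes, coloured by compartment, with bars for the approximate 95% counting interval and dotted lines at 2-fold. Ratios run from 0.389 (Ears2) to 1.43 (Nars2), 30 of them below 1, and cytosolic and mitochondrial enzymes are mixed along the order.

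The width of the distribution differed as well. The middle 50% of the family spanned ratios of 0.611 to 0.987, a width of 0.69 on the log2 scale, while the middle 50% of protein-coding genes listed in both libraries spanned 0.674 to 1.35, a width of 1.00. Of 8968 coding genes with a mean level in the range of the family without Lars2, 12.9% were over 2-fold lower by the plain ratio and 7.08% over 2-fold higher. Other genes of protein synthesis had similar medians on the log2(RPKM + 1) scale. The 77 mitochondrial ribosomal protein genes had a median of -0.22, with 50 of 76 listed genes lower and 14 over 2-fold lower (18.4%, near the 20.1% of coding genes listed in either library). The 66 genes of initiation and elongation factors had a median of -0.23, with 40 of 64 lower and 11 over 2-fold lower (17.2%, also near that background). Whether the family differs from these groups was not tested.

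**Figure D2:**
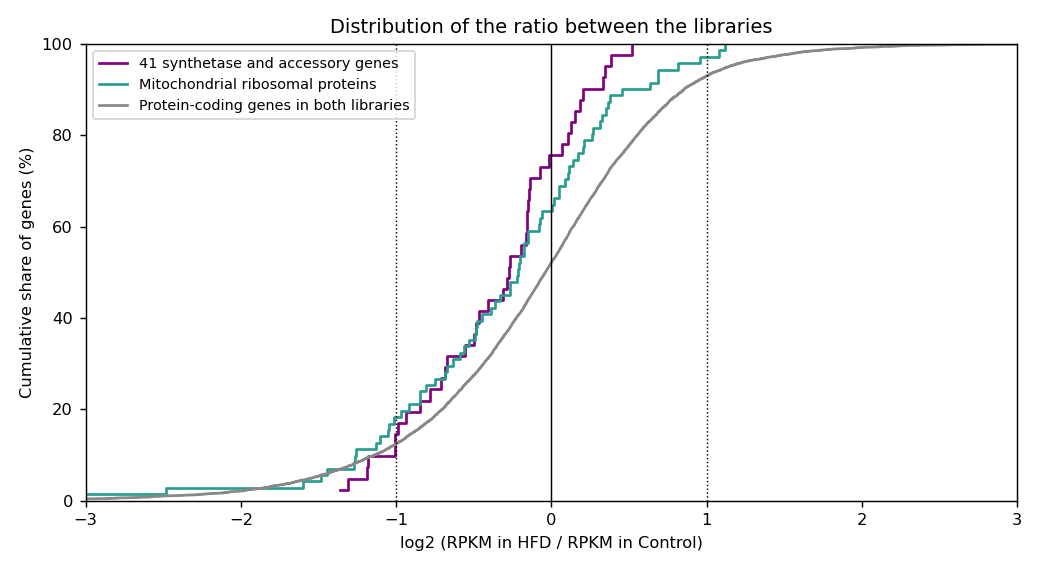
Cumulative share of genes (%) against the log2 ratio of RPKM in HFD cells to RPKM in Control cells, for the 41 synthetase and accessory genes, the mitochondrial ribosomal protein genes and all protein-coding genes listed in both libraries, with dotted lines at 2-fold. The synthetase curve reaches 75.6% at a ratio of 1 and ends at 1.43, while the curve of all coding genes is at 52.2% there and extends past 2-fold.

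The stretches of promoter sequence that follow are shown because 5 cytosolic genes of the family share the motif TGATGNAA, the form of the element that the transcription factor ATF4 is known to bind in genes of the amino acid response. RefSeq promoters on GRCm38.p6, each covering 250 bases before to 50 after the annotated start, matched 31 of the 41 genes. Each stretch is written 5′ to 3′ on the strand of its gene with the motif in capitals, either as TGATGNAA or as its reverse complement.
Yars (chr4:129189895-129189924, plus strand): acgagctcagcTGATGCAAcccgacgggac
Iars (chr13:49682126-49682155, plus strand): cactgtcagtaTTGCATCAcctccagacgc
Tars (chr15:11399655-11399684, minus strand): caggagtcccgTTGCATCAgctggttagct
Aars (chr8:111033840-111033869, plus strand): agcgggtcactTTTCATCAgagcgctctga
Gars (chr6:55037960-55037989, plus strand): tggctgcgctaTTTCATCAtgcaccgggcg
In these stretches the motif began 30 bases before the start in Gars and 15 bases before it in Tars. It began at base 4 of the transcript in Yars, base 8 in Iars and base 10 in Aars. It was found in 15.2% of the 33 promoters of the family, against 3.97% of 32851 promoters of all genes. None of the mitochondrial enzymes matched had it, but the family has only 17, too few to read against a share of 3.97%. Gars, 1 of the 5 genes with the motif, serves both compartments. Its stricter form TGATGCAA, which overlaps it, was in 12.1% of the promoters of the family, among them those of Iars, Tars and Yars, against 0.895% of all promoters, and TGATGAAA was in those of Aars and Gars (1.02% of all). Read on both strands, the ETS-type motif CCGGAAG was in 11 genes of both compartments (33.3% of the promoters, against 8.86% of all), CACGTG in 5 (15.2% against 7.15%), CCAAT in 17 (51.5% against 37.4%) and TATAAA in 3 (12.1% against 13.6%). The motif TGACGTCA was in none of the 33 promoters, against 1.79% of all. These matches describe letters and not binding. The RPKM ratios of the 5 genes with TGATGNAA were 0.505 (Yars), 0.611 (Aars), 0.715 (Tars), 0.952 (Iars) and 1.27 (Gars). Only Gars lay above 1 as deposited, and the interval of Iars spanned 1. All 5 were lower when HFD values were rescaled to a total without the 20 most abundant genes of either library. So were all 41 genes of the family, so that direction does not set the 5 apart.

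Cytosolic enzymes were the more abundant class, apart from Lars2. Their median level was 18.5 RPKM in HFD cells and 23.3 RPKM in Control cells, and that of the mitochondrial enzymes 5.84 RPKM in HFD cells and 6.79 RPKM in Control cells. Of the 20 cytosolic enzymes, 16 were lower in HFD cells, with a median log2(RPKM + 1) difference of -0.27. Of the 17 mitochondrial enzymes, 12 were lower, with a median of -0.15. The classes cannot be compared by a test, since genes are not replicates.

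**Figure D3:**
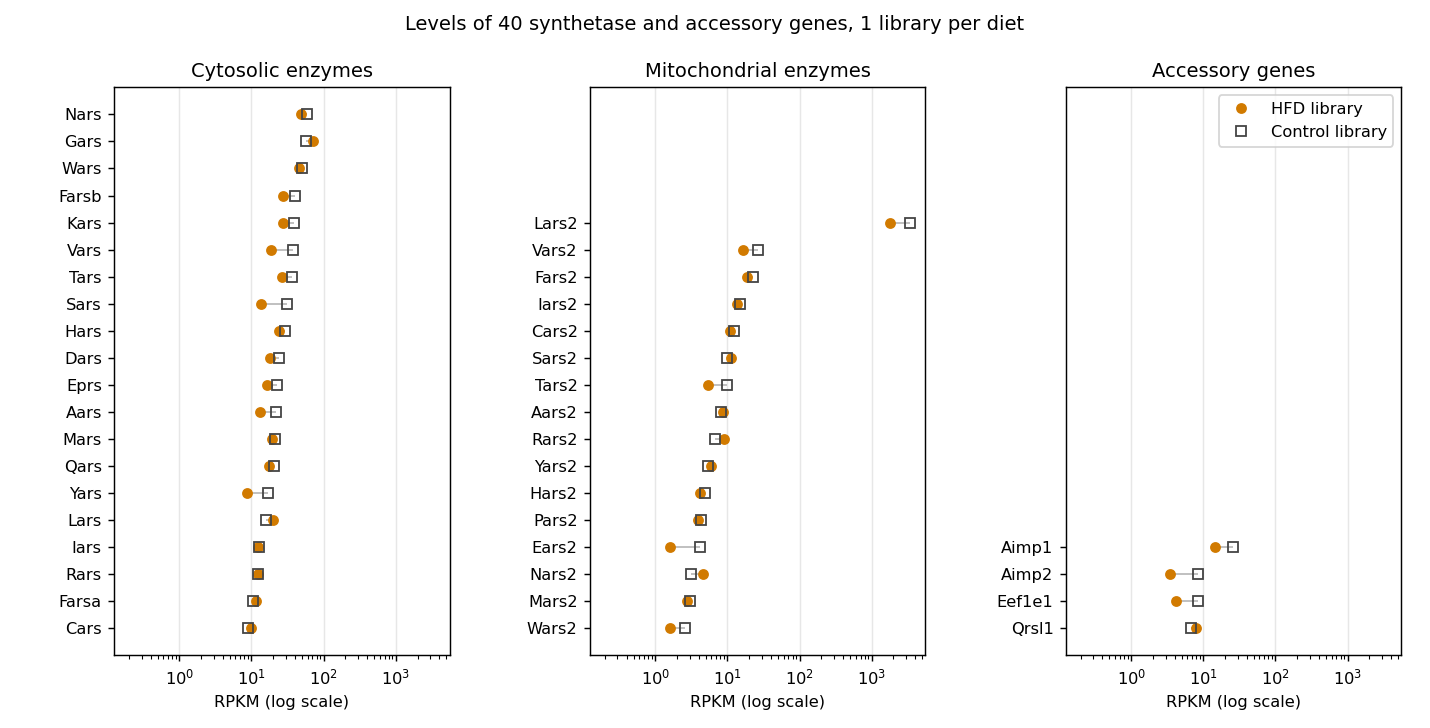
RPKM (log scale) of 40 of the 41 genes in the HFD library (filled circles) and the Control library (open squares), in panels for cytosolic enzymes, mitochondrial enzymes and accessory genes. Lars2 stands at 1784 RPKM in HFD cells and 3419 RPKM in Control cells, while no other gene drawn exceeds 72.1 RPKM in HFD cells or 58.6 RPKM in Control cells.

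The 3 most abundant cytosolic enzymes were those for glycine, asparagine and tryptophan. Gars, which serves both compartments, stood at 72.1 RPKM in HFD cells and 56.7 RPKM in Control cells, a ratio of 1.27 (interval 1.204 to 1.34). Nars, the enzyme for asparagine, stood at 48.5 RPKM in HFD cells and 58.6 RPKM in Control cells (ratio 0.828). Wars, the enzyme for tryptophan and known as an interferon-inducible gene, stood at 44.9 RPKM in HFD cells and 49.6 RPKM in Control cells (0.905, interval 0.855 to 0.959). Of the 3 only Gars was higher in HFD cells as deposited, though lower, like the rest of the family, when HFD values were rescaled to a total without the 20 most abundant genes of either library. The order of Gars and Nars differed between the libraries.

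The serine, valine and tyrosine enzymes showed the largest cytosolic deficits. Sars stood at 13.8 RPKM in HFD cells and 31.2 RPKM in Control cells, a ratio of 0.441 (0.412 to 0.473). Vars stood at 18.8 RPKM in HFD cells and 37.7 RPKM in Control cells (0.498, 0.470 to 0.527). Yars stood at 8.60 RPKM in HFD cells and 17.02 RPKM in Control cells (0.505, 0.465 to 0.550). All 3 intervals lay wholly below 1. Aars, the alanine enzyme, had a ratio of 0.611, with 13.3 RPKM in HFD cells and 21.7 RPKM in Control cells. The phenylalanine enzyme is built of 2 subunits, and their genes differed: Farsb, the beta subunit, stood at 27.5 RPKM in HFD cells and 40.5 RPKM in Control cells (0.679, 0.629 to 0.733), and Farsa, the alpha subunit, at 11.6 RPKM in HFD cells and 10.5 RPKM in Control cells (1.11, 0.998 to 1.24). The intervals of these 2 subunit genes did not overlap. Tars, for threonine, stood at 26.3 RPKM in HFD cells and 36.8 RPKM in Control cells (0.715). Hars, for histidine, stood at 24.1 RPKM in HFD cells and 29.5 RPKM in Control cells (0.819). Cars, for cysteine, was the least abundant cytosolic enzyme in Control cells, with 9.75 RPKM in HFD cells and 8.93 RPKM in Control cells, and its interval of 0.993 to 1.203 spanned 1.

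Of the 11 genes of the multi-synthetase complex 10 were lower in HFD cells, with a median log2(RPKM + 1) difference of -0.39. Its bifunctional enzyme Eprs stood at 16.2 RPKM in HFD cells and 22.3 RPKM in Control cells (ratio 0.724, interval 0.696 to 0.753). Kars stood at 27.5 RPKM in HFD cells and 38.8 RPKM in Control cells (0.708). Dars, for aspartate, stood at 18.3 RPKM in HFD cells and 24.3 RPKM in Control cells (0.754). These 3 had the lowest ratios among the enzymes of the complex. Qars, the glutamine enzyme, had a ratio of 0.831 (17.3 RPKM in HFD cells and 20.8 RPKM in Control cells). Mars, the methionine enzyme, had a ratio of 0.893 (19.1 RPKM in HFD cells and 21.4 RPKM in Control cells). Iars and Rars, for isoleucine and arginine, had ratios of 0.952 and 0.987, with intervals that spanned 1. Iars stood at 12.2 RPKM in HFD cells and 12.8 RPKM in Control cells, and Rars at 12.4 RPKM in HFD cells and 12.5 RPKM in Control cells. Lars, the cytosolic leucine enzyme and a known sensor of leucine for the mTOR pathway, was the exception. It stood at 19.9 RPKM in HFD cells and 15.8 RPKM in Control cells (1.26, 1.16 to 1.36), but was lower, as were all 41 genes, when HFD values were rescaled to a total that leaves out the 20 most abundant genes of either library. All 3 scaffold genes were lower and had lower ratios than every enzyme of the complex. Aimp1 stood at 14.7 RPKM in HFD cells and 25.4 RPKM in Control cells (0.580, 0.542 to 0.622). Aimp2 stood at 3.45 RPKM in HFD cells and 8.55 RPKM in Control cells (0.404, 0.319 to 0.515). Eef1e1 stood at 4.16 RPKM in HFD cells and 8.36 RPKM in Control cells (0.498, 0.423 to 0.586). Aimp2 shares 487 of its exon bases, 29.4% of them, with Eif2ak1 on the opposite strand, whose level was 10.8 RPKM in HFD cells and 9.14 RPKM in Control cells. How reads on overlapping genes were assigned is not stated, so the values of these 2 genes may be mixed.

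Lars2, the mitochondrial leucine enzyme, stood apart from the whole family by its level. It stood at 1784 RPKM in HFD cells and 3419 RPKM in Control cells, a ratio of 0.522 (0.520 to 0.524), and ranked 12 in HFD cells and 10 in Control cells among protein-coding genes. It was 24.8 times as high as the next gene of the family in HFD cells and 58.4 times in Control cells, and it was 89.6 times as high as its cytosolic counterpart Lars in HFD cells and 216 times in Control cells. It held 74.5% of the summed RPKM of the family in HFD cells and 81.8% in Control cells, and an estimated 1.98% of reads in HFD cells and 3.79% in Control cells. These read shares use the 11089 bases of all its annotated exons together and may be overestimated. Lars2 (ENSMUSG00000035202) lies on chromosome 9 from 123366927 to 123462666 in mm10. The annotated transcript examined has 3894 bases with the coding sequence at bases 200 to 2908. Within the noncoding part of its last exon, bases 3278 to 3349 matched Gm15564 over 72 bases at 98.6% identity and bases 3233 to 3329 matched AA474408 over 97 bases at 94.8% identity. Both of these genes lie elsewhere in the genome. Gm15564 is annotated as an antisense RNA and stood at 240 RPKM in HFD cells and 399 RPKM in Control cells, a ratio of 0.600 (0.574 to 0.627). AA474408 stood at 5.47 RPKM in HFD cells and 11.96 RPKM in Control cells (0.458, 0.399 to 0.525). The ratio of Lars2 lay between those of these 2 genes. They were chosen after values were seen, so that order is a description only. Ribosomal RNA was still listed after depletion: the entry n-R5-8s1 stood at 304350 RPKM in HFD cells and 285593 RPKM in Control cells. Gm24601, also annotated as ribosomal RNA, stood at 123 RPKM in HFD cells and 193 RPKM in Control cells. What part of the Lars2 value comes from shared sequence or from remaining ribosomal RNA was not tested. Without Lars2 the sum over the other 40 genes was 612 RPKM in HFD cells and 759 RPKM in Control cells, a ratio of 0.806, and the median of the family was -0.26 on the log2(RPKM + 1) scale.

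**Figure D4:**
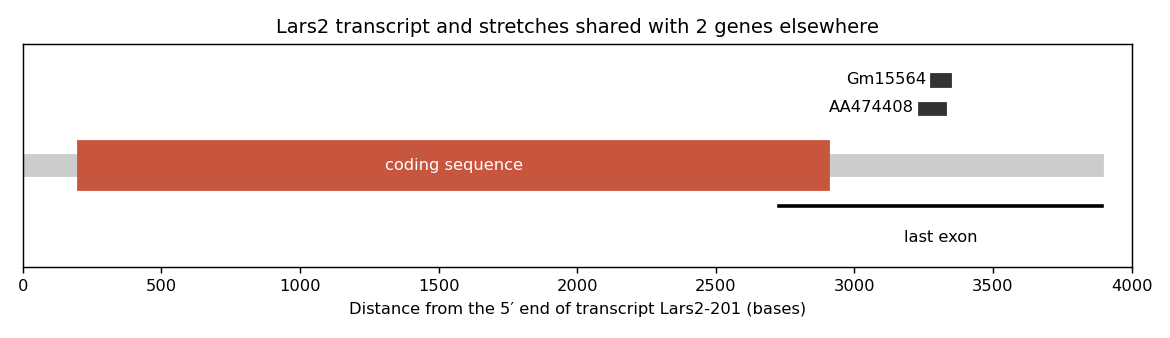
The Lars2 transcript by distance from its 5′ end (bases), with the coding sequence (bases 200 to 2908), the last exon and the stretches shared with Gm15564 and AA474408. Both shared stretches, of 72 and 97 aligned bases, lie in the noncoding part of the last exon.

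The other mitochondrial enzymes ranged from 1.60 to 18.4 RPKM in HFD cells and from 2.55 to 26.2 RPKM in Control cells. Ears2, which starts the route to glutaminyl-tRNA, had the lowest ratio of the family at 0.389 (0.320 to 0.474), with 1.61 RPKM in HFD cells and 4.14 RPKM in Control cells. The amidotransferase genes that act after it were higher in the values as deposited. Qrsl1 stood at 7.83 RPKM in HFD cells and 6.81 RPKM in Control cells (1.15, 0.997 to 1.33). Gatb stood at 5.90 RPKM in HFD cells and 4.98 RPKM in Control cells (1.18, 1.01 to 1.39). Gatc stood at 19.9 RPKM in HFD cells and 7.13 RPKM in Control cells (2.79, 2.32 to 3.40). The differences of Qrsl1 and Gatb, 0.18 and 0.20 on the log2(RPKM + 1) scale, are smaller than the shift of -0.57 that scaling without the 20 most abundant genes gives to the HFD values.

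Tars2, the mitochondrial threonine enzyme, stood at 5.42 RPKM in HFD cells and 9.75 RPKM in Control cells (0.556). Vars2 stood at 16.3 RPKM in HFD cells and 26.2 RPKM in Control cells (0.621, 0.581 to 0.664). The intervals of Tars2 and Vars2 lay wholly below 1. Wars2 was the least abundant gene of the family, at 1.60 RPKM in HFD cells and 2.55 RPKM in Control cells (0.628, 0.511 to 0.777). Fars2 stood at 18.4 RPKM in HFD cells and 22.8 RPKM in Control cells (0.807). Ears2 and Wars2 lay close to the floor of 1 RPKM, with 212 to 243 estimated reads in HFD cells.

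A group of mitochondrial enzymes was close to equal between the libraries in the values as deposited. Iars2 stood at 13.5 RPKM in HFD cells and 14.9 RPKM in Control cells (0.911), and it shares 2034 exon bases with Rab3gap2 on the opposite strand. Cars2 stood at 11.03 RPKM in HFD cells and 12.3 RPKM in Control cells (0.896). The intervals of Iars2 (0.853 to 0.972) and Cars2 (0.828 to 0.972) nonetheless lay wholly below 1. Hars2, Mars2, Pars2, Aars2 and Yars2 had ratios of 0.871, 0.902, 0.895, 1.05 and 1.08, all with intervals that spanned 1. Hars2 stood at 4.22 RPKM in HFD cells and 4.84 RPKM in Control cells. Mars2 stood at 2.72 RPKM in HFD cells and 3.01 RPKM in Control cells, and Pars2 at 3.85 RPKM in HFD cells and 4.30 RPKM in Control cells. Aars2 stood at 8.62 RPKM in HFD cells and 8.21 RPKM in Control cells, and Yars2 at 5.84 RPKM in HFD cells and 5.42 RPKM in Control cells. In the values as deposited, a difference beyond counting error was not detectable in these 5 genes. Like the whole family, they were lower when HFD values were rescaled to a total without the 20 most abundant genes of either library. Their log2(RPKM + 1) differences then ran from -0.61 (Hars2) to -0.38 (Yars2).

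The 2 highest ratios of the family, those of Nars2 and Rars2, belonged to mitochondrial enzymes, though these too were below 1 on the scale without the 20 most abundant genes. Nars2, for asparagine, stood at 4.53 RPKM in HFD cells and 3.16 RPKM in Control cells (1.43, 1.23 to 1.67). Rars2, for arginine, stood at 8.87 RPKM in HFD cells and 6.79 RPKM in Control cells (1.31, 1.11 to 1.55). Sars2, for serine, lay below Gars, Lars and Qrsl1 in ratio and stood at 11.4 RPKM in HFD cells and 10.03 RPKM in Control cells (1.14, 1.001 to 1.29). These 3, with Gars and Lars, are the 5 genes whose intervals lay above 1.

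Paired by amino acid, the cytosolic enzyme was more abundant than the mitochondrial one in 13 of 17 pairs in each library (Eprs stands in the pairs of both Ears2 and Pars2, and Farsa in that of Fars2). The median of cytosolic over mitochondrial RPKM was 1.54 in HFD cells and 3.14 in Control cells, but these medians fall on different pairs. Within pairs the log2 ratio of HFD to Control differed by a median of 0.01 (mitochondrial minus cytosolic), and it was lower for the mitochondrial partner in 8 pairs and for the cytosolic partner in 9. The mitochondrial enzymes more abundant than their cytosolic partners in both libraries were Lars2, Fars2 (against Farsa), Cars2 and Iars2. The widest gap outside leucine was that of tryptophan, where Wars was 28.0 times as high as Wars2 in HFD cells and 19.4 times in Control cells. In the values as deposited both partners were lower in HFD cells in 9 pairs and both higher in none, and rescaled without the 20 most abundant genes both were lower in all 17. As deposited, the cytosolic partner was lower and the mitochondrial one higher in 5 pairs, those of alanine, asparagine, arginine, serine and tyrosine, and the reverse held in 3 (cysteine, phenylalanine and leucine), though the intervals of Aars2, Yars2, Rars, Cars and Farsa spanned 1. The serine quotient differed most of these 5: Sars was 1.21 times as high as Sars2 in HFD cells and 3.11 times in Control cells. Tyrosine was similar, with Yars at 1.47 times Yars2 in HFD cells and 3.14 times in Control cells. For asparagine the gap was 10.7 times in HFD cells and 18.5 times in Control cells. For threonine it was wider in HFD cells, 4.85 times, against 3.78 times in Control cells. The quotients within a library do not depend on how the libraries are scaled, whereas the directions of single partners do.

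**Figure D5:**
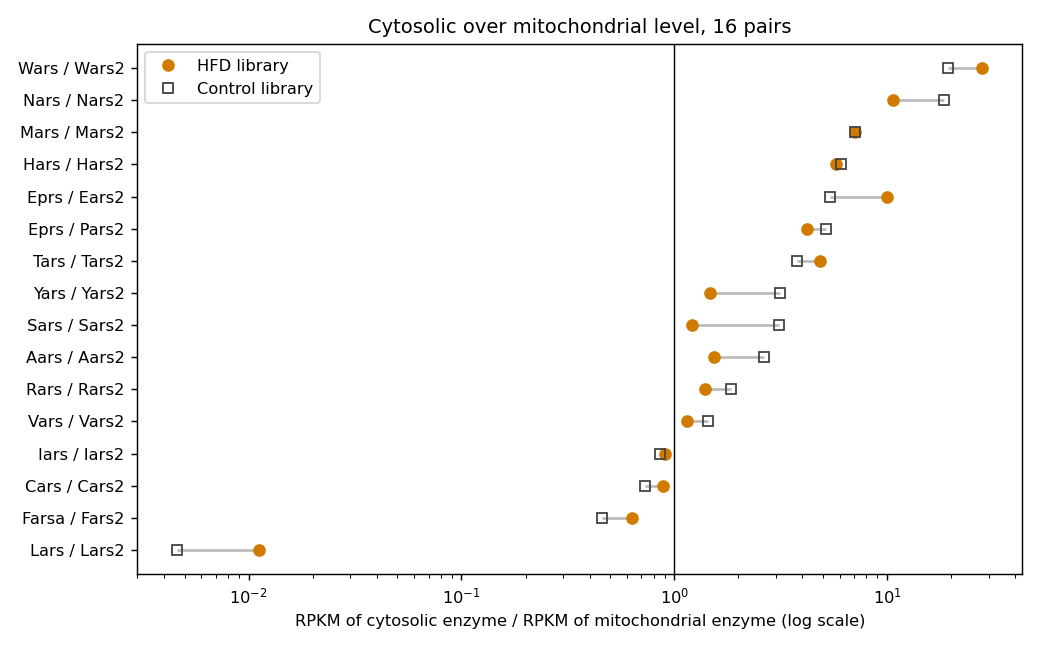
RPKM of the cytosolic enzyme divided by RPKM of its mitochondrial counterpart (log scale) for 16 of the 17 pairs, in the HFD library (filled circles) and the Control library (open squares), with a line at 1. In 12 of these pairs the quotient lies above 1 in both libraries, and Lars over Lars2 is far below all others.

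Genes of the ATF4 amino acid response were mostly lower: of 24 genes 21 were listed in either library, 16 lower and 5 higher in HFD cells, with a median log2(RPKM + 1) difference of -0.71, 7 over 2-fold lower and 1 over 2-fold higher. Over coding genes listed in either library 56.0% were lower, 20.1% over 2-fold lower and 8.02% over 2-fold higher. Atf4 itself stood at 134 RPKM in HFD cells and 92.1 RPKM in Control cells (1.46, 1.39 to 1.53), and its log2(RPKM + 1) difference of 0.54 is about the size of the shift of -0.57 named above. Asns, asparagine synthetase, stood at 27.7 RPKM in HFD cells and 46.0 RPKM in Control cells (0.601, 0.559 to 0.646). Nupr1, a stress-induced chromatin protein gene, was the lowest with at least 50 estimated reads, at 3.80 RPKM in HFD cells and 20.4 RPKM in Control cells. Chac1, a glutathione-degrading enzyme gene, went the other way, at 7.45 RPKM in HFD cells and 1.06 RPKM in Control cells, where it rested on 17 estimated reads. The amino acid transporter gene Slc3a2 stood at 35.5 RPKM in HFD cells and 31.2 RPKM in Control cells, and its partner Slc7a5 at 2.94 RPKM in HFD cells and 8.28 RPKM in Control cells.

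Of 16 genes of amino acid sensing 9 were higher in HFD cells and their median was 0.14. Eif2ak4, the kinase that responds to uncharged transfer RNA, stood at 7.22 RPKM in HFD cells and 4.62 RPKM in Control cells (1.56, 1.39 to 1.76). Mtor stood at 22.96 RPKM in HFD cells and 21.5 RPKM in Control cells. Rragc, a GTPase of amino acid signalling to mTOR, had the highest ratio at 1.87, and among the genes listed in both libraries the sestrin gene Sesn3 had the lowest at 0.636. Rragd, another such GTPase gene, was listed at 0 in HFD cells, against 1.80 RPKM in Control cells. Among 11 helper and editing genes 7 were higher, with a median of 0.16. Mtfmt, which formylates the mitochondrial initiator methionyl-tRNA, stood at 4.80 RPKM in HFD cells and 1.56 RPKM in Control cells (3.08, 2.33 to 4.14). Prorsd1 stood at 5.99 RPKM in HFD cells and 2.28 RPKM in Control cells (2.62). Dtd1 and Aarsd1, which encode enzymes that edit mischarged transfer RNA, were listed at 0 in HFD cells, against 7.43 RPKM (Dtd1) and 4.67 RPKM (Aarsd1) in Control cells. Mitochondrial translation factors had a median of -0.28 with 9 of 12 lower, and Tsfm stood at 16.2 RPKM in HFD cells and 16.2 RPKM in Control cells. Its partner Tufm, the mitochondrial elongation factor, had a ratio of 0.573, and Mtrf1, a release factor gene, had the highest ratio at 2.95. The medians of the sensing and helper genes are smaller than the shift of -0.57.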

How the data were processed

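The authors deposited 1 table per library with a value for each of 38087 Ensembl identifiers in a column headed RPKM. The deposited values are log2 of RPKM, read as such from the values themselves, with genes at or below 1 RPKM listed as 0. Bedtools 2.25.0 and build mm10 are named by the submitters' processing notes, and no source used here names the aligner, the rule for counting reads or the annotation release. GENCODE M21 (GRCm38) gave symbols and exon lengths for 36308 identifiers, and 1779 did not match. Depth came from the step on which RPKM times length of single-exon genes falls: 94 of 189 HFD values and 262 of 727 Control values of at most 12 steps were whole within 0.005 of a step.

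Differences are log2(RPKM + 1) in HFD minus Control, with a pseudocount of 1 RPKM that understates low genes. Ratios are plain RPKM ratios, with exact conditional binomial 95% intervals computed on estimated reads (the product of RPKM, exon length and depth). Exon lengths are unions over all transcripts, so reads may be overestimated and intervals too narrow. No count model was run, since no counts were used. The planned design had no test of diet. Named genes were all members, those past 2-fold, the 4 highest and lowest ratios and the 4 most abundant, and from other lists those of highest level and extreme ratio with at least 50 estimated reads. Gm15564, AA474408, Eif2ak1, Eif2ak4, Slc7a5, Dtd1, Aarsd1, Rragd and the motifs were chosen after values were seen. Members and lists were chosen with earlier results of these data known. Calculations used Python 3.11.15, scipy 1.17.1 and blastn 2.17.0 (at least 70 bases and 94% identity) and were tested on simulated data. Promoter sequences are from RefSeq on GRCm38.p6; genes with no entry matched include Cars, Hars, Hars2, Lars, Nars, Pars2, Rars, Vars and Wars. Values of 1 gene of the family and 1 promoter stretch are not reported here, though the counts and medians of the family include them.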

Additional observations from a re-analysis of the deposited data

How the results depend on the processing

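The family median stayed below 0 under each alternative tried. Rescaling HFD values to a total that leaves out the 20 most abundant genes of either library moved it most, to -0.79. The median of protein-coding genes listed in either library was then -0.58. All 41 genes were then below Control and 15 of 41 over 2-fold lower, against 31.2% of coding genes listed in either library. That base includes genes at 0 in a library, whereas the whole family is listed in both. On that scale the cytosolic median log2 difference was -0.82 and the mitochondrial one -0.65, and the median HFD levels were 12.5 RPKM (cytosolic) and 3.93 RPKM (mitochondrial). With a pseudocount of 0.1 RPKM 5 genes were over 2-fold lower, against 22.5% of coding genes listed in either library. Without a pseudocount 6 were, against 12.5% of coding genes listed in both. The count was 1 without the 7 members that share 300 or more exon bases with another gene (Aimp2 is among them). That last alternative was chosen after seeing the data. The mitochondrial median level was 11.2 RPKM in both libraries at a minimum of 5 RPKM, 4.97 RPKM in HFD and 5.13 RPKM in Control without those 7 members, and 6.10 RPKM in Control without Lars2. Scaled to the coding median, 30 of 41 genes were lower. No member over 2-fold reversed. No paired analysis was possible because each diet has 1 library, and no library could be left out. Reads limit the low genes: Ears2 and Wars2 rest on at most 243 estimated reads in a library.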

Other observations

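Synthetases fall into 2 structural classes with unrelated catalytic folds, and both were mostly lower in HFD cells. Of 18 class I enzymes 14 were lower, their log2(RPKM + 1) differences having a median of -0.14, at median levels of 12.3 RPKM in HFD cells and 13.8 RPKM in Control cells. Of 18 class II enzymes 13 were lower, with a median of -0.29 and median levels of 13.5 RPKM in HFD cells and 22.3 RPKM in Control cells. Eprs holds a domain of each class and was left out. The order of the 41 levels was much the same in both libraries (Spearman's rho 0.94 across genes, which share both libraries and are not independent replicates). Across the 41 genes the ratio was only weakly related to exon length (rho -0.16) or to mean level (rho -0.10). Exons of 16 genes overlap another gene, and 7 of them (Aars, Aimp2, Cars2, Fars2, Iars2 and Vars2 among them) share 300 or more bases. Iars shares 1656 aligned bases at 96.0% identity with the processed pseudogene Gm4849, and shorter stretches of Tars (up to 154 bases, 4 genes) and Wars2 (up to 119 bases, 3 genes) also match genes elsewhere, so the values of all these genes are less certain than those of the other members.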
